A study of Bos taurus with 29 samples.

Results

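Glandular epithelium (GE) held a small set of transcripts whose mean level in cows with low progesterone (P4) was at least 10 times that in the other captured parts of the endometrium. The set was selected on measured values by a fixed rule. Over the samples from low P4 cows, a transcript had to average at least 10 TPM (the share of a transcript among all transcripts, scaled for length and depth) in GE and at least 10 times its mean in both luminal epithelium (LE) and stroma (ST). The rule kept 107 of 37925 transcripts (0.282%), or 1.21% of the 8819 transcripts that reached 10 TPM in low P4 GE. The same rule turned towards LE kept 68 transcripts, and turned towards ST it kept 11.

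Endometrial biopsies came from 13 Holstein dairy cows of a single herd with a healthy uterus, and the cell types were cut out of the tissue by laser capture microdissection. The cows were 45 days postpartum by the sample labels and 44 days by the study design, and they were sorted at 1 ng/mL of P4 into a high P4 group of 4 cows and a low P4 group of 9. The methods of the study describe grouping by circulating P4 and the corpus luteum and name no hormone treatment. They place both anoestrous cows and cows near oestrus in the low P4 group, so P4 and the ovarian stage cannot be told apart. GE was available from 3 high P4 and 7 low P4 cows, LE from 1 and 6, and ST from 3 and 9, which makes 29 samples. Cows are numbered here from 1 to 13. High P4 GE came from cows 2, 4 and 9, high P4 ST from cows 4, 5 and 9, and high P4 LE from cow 9 alone.

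Uterine glands are invaginations of the surface epithelium into the stroma. Their cells secrete the histotroph, the mixture of proteins, sugars and lipids on which the ruminant conceptus lives before it attaches, and P4 is known to control what they secrete. LE lines the lumen and meets the conceptus directly, while ST surrounds the glands and relays part of the hormone signal to both epithelia. The files do not pair transcripts with gene names, so each member is known here only by its Ensembl identifier. What its protein does is therefore not described, how many genes the 107 transcripts stand for is not known, and the tissue labels were not checked against named marker genes.

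Since TPM is scaled for length, levels can be compared between transcripts. The samples held 24860445 to 33209181 estimated counts each, with a median of 28494910. A member had on average at least 93.4 estimated counts in low P4 GE, and the median member 824. Reads shared between transcripts of a gene or between close copies are divided among them by the quantification, so the value of a single member is less certain than the level of the set. In captured tissue, fewer cells of a type and less RNA per cell cannot be told apart.

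Some libraries stood apart. To follow them, 185 transcripts of both epithelia served as a reference. They had at least 10 TPM in low P4 GE and LE, differed by less than 2-fold between the epithelia, and were at least 10 times lower in ST. Their median level, as a percentage of the low P4 mean over GE and LE, was 34.1% in GE and 34.2% in LE of low P4 cow 13, against 68.7% to 122% in the other 9 GE samples. The LE-restricted transcripts, at 0.91% to 2.3% of their own LE level in the other GE samples, reached 9.92% in GE of low P4 cow 6. In LE of high P4 cow 9 they stood at only 12.9% of the low P4 LE mean. Among ST samples, that of high P4 cow 4 held the transcripts of both epithelia at 21.2%, against 3.67% in cow 5, 2.88% in cow 9 and 0.486% to 8.96% in the low P4 cows.

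The members covered a wide range of abundance in the glands. Mean levels in low P4 GE ran from 10.0 to 4680 TPM with a median of 31.2 TPM, and 35 members lay between 10 and 20 TPM, 44 between 20 and 50 TPM, 21 between 50 and 100 TPM and 7 above. LE was the next highest cell type for 99 members and ST for 8. The median ratio to LE was 17.5 and to ST 116, so the set stood much farther from the stroma than from the surface epithelium. These values chose the members and are a description. The ratio of GE to the next cell type had a median of 17.0 and reached 452, while 36 members had a ratio of at least 20 and 10 of at least 50.

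Many members lay close to the limits. The lowest ratios inside were 10.02, 10.15 and 10.15, and the highest ratios outside, among transcripts with at least 10 TPM in GE, were 9.82, 9.74 and 9.71. The lowest levels inside were 10.01, 10.32 and 10.36 TPM, and the highest outside, among transcripts with a sufficient ratio, were 9.83, 9.69 and 9.64 TPM. With each low P4 cow left out in turn, 71 of the 107 members were kept every time. The rule then kept between 88 transcripts (without cow 3, 86 of them members) and 123 transcripts (without cow 6, 104 of them members).

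The member transcripts were shorter than other transcripts of the glands and varied more between cows. Their annotated length had a median of 1343 bases, against 1827.5 bases for the 8712 other transcripts with at least 10 TPM in low P4 GE. The coefficient of variation among the 7 low P4 GE samples had a median of 66.6% for the members and 37.7% for the others. It was 55.3% and 33.3% without cow 13. Among the 3 high P4 GE samples, which the rule did not use, it was 47.9% over the 106 members detected there, and 19.5% over 8707 other transcripts.

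**Figure D1:**
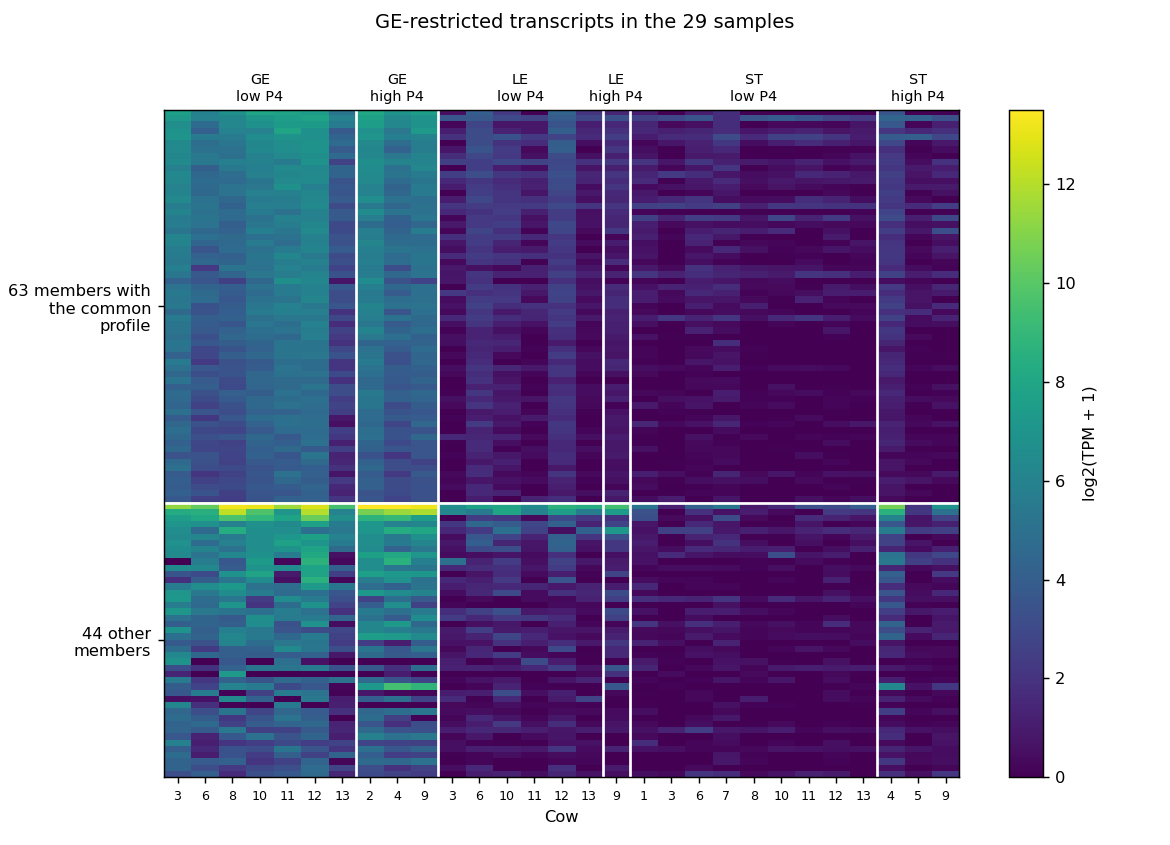
Level of each of the 107 GE-restricted transcripts (rows, log2(TPM + 1) as colour) in each of the 29 samples (columns, by cow), with cell types and P4 groups divided by white lines. Rows are split into the 63 members that follow a common profile over the GE samples and the 44 others, each sorted by the low P4 GE mean. The GE columns are bright in both P4 groups, with a darker column for cow 13, while most LE and ST values are dark.

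The set stood out in the glands of nearly every cow taken alone. All 10 GE samples lay above all 19 LE and ST samples for 58 of 107 members, against 0.553% of 27480 transcripts. The other 9 GE samples did so for 78 members when GE of cow 13 was left out, against 1.18%. In the 7 cows with both epithelia, 102 to 105 members were higher in GE than in LE of the same cow, and 99 were higher in all 7 cows. In the 9 cows with GE and ST, 104 to 106 members were higher in GE, and 100 were higher in all 9 cows. For the counts within cows, the share over all transcripts was not computed. Most of these samples chose the members for this order, so the counts are a description. The rule did not use those of high P4 cows.

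Relative to its own low P4 GE mean, the median member stood at 20.8% to 164% in low P4 GE and at 65.3% to 143% in high P4 GE. It was at 1.19% to 11.4% in low P4 LE, 4.49% in LE of high P4 cow 9, and 0 to 1.82% in low P4 ST. In high P4 ST it stood at 0.681% and 1.18% in cows 5 and 9 but at 8.05% in cow 4. Among the low P4 LE samples, cows 3, 11 and 13 lay between 1.19% and 1.39%, whereas cows 10, 6 and 12 lay at 4.91%, 8.95% and 11.4%. The transcripts of both epithelia moved the same way. They stood at 34.2% to 73.6% in LE of the former and 105% to 139% in LE of the latter. The LE-restricted transcripts stood at 149%, 71.4% and 19.9% of their own low P4 LE mean in LE of cows 3, 11 and 13. In LE of cows 10, 6 and 12 they stood at 64.2%, 37.9% and 43.9%. The part of either list in the difference was not tested.

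Summed over the members, GE held 1941 to 19482 TPM in low P4 cows and 17425 to 19387 TPM in high P4 cows. The means were 10666 ± 6893 TPM (SD, n = 7) and 18697 ± 1102 TPM (SD, n = 3). The sum was 566 ± 300 TPM (SD, n = 6) in low P4 LE and 81.0 ± 39.7 TPM (SD, n = 9) in low P4 ST. It was 1197 TPM in the single high P4 LE sample and 1001 ± 1428 TPM (SD, n = 3) in high P4 ST, where cow 4 held 2647 TPM, cow 9 271 TPM and cow 5 86.0 TPM. The 5 members of highest level carried most of the difference between the P4 groups in GE. Without them the sums were 3710 ± 1885 TPM (SD, n = 7) in low P4 and 4532 ± 760 TPM (SD, n = 3) in high P4.

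**Figure D2:**
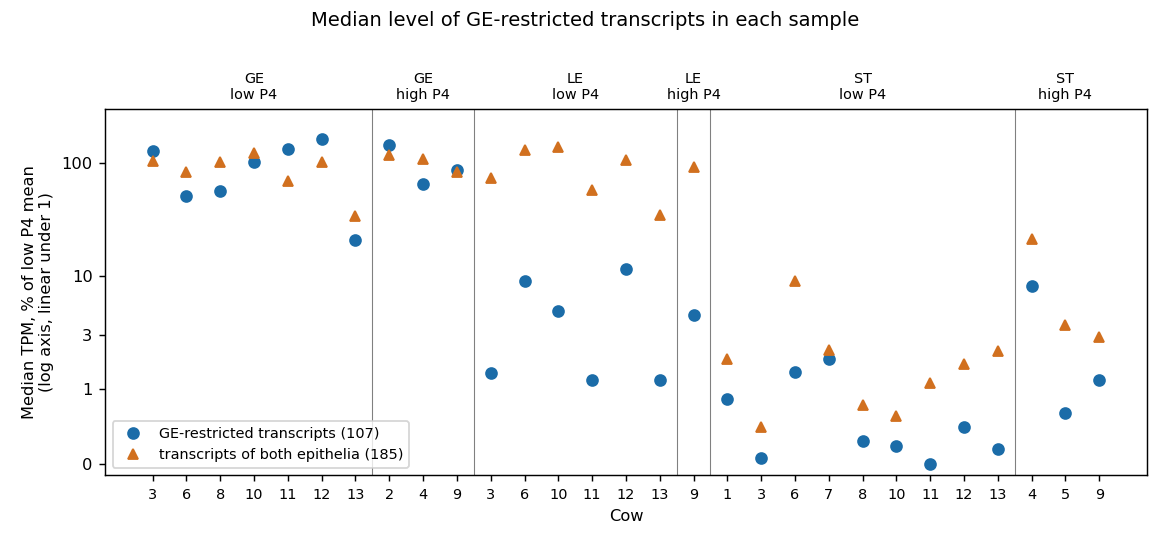
Median level of the 107 GE-restricted transcripts (circles) and of the 185 transcripts of both epithelia (triangles) in each sample as a percentage of the low P4 mean, in GE for circles and over GE and LE for triangles. The vertical axis is logarithmic above 1 and linear below. Both symbols are highest among ST samples in that of cow 4, at 8.05% and 21.2%.

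A pair of transcripts dominated the set. ENSBTAT00000028684.5 averaged 4680 TPM in low P4 GE and alone made up 43.9% of the members' sum there, and with ENSBTAT00000008743.4 the share was 58.0%. Both are short, at 480 and 438 bases. In low P4 GE, ENSBTAT00000028684.5 ranged from 739 TPM in cow 13 through a median of 2940 TPM to 9499 TPM in cow 8. In high P4 GE it was at 11274 TPM in cow 2, 11557 TPM in cow 4 and 9259 TPM in cow 9. Levels in high P4 GE were thus close together, and that of cow 9 lay below the highest low P4 value. In LE it was at 85.6 to 413 TPM in low P4 cows and 688 TPM in high P4 cow 9. In ST it was at 0.93 to 36.8 TPM in low P4 cows, and at 1623, 3.19 and 127 TPM in high P4 cows 4, 5 and 9.

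ENSBTAT00000008743.4 was less even among the low P4 cows, from 61.4 TPM in cow 13 through a median of 357 TPM to 4755 TPM in cow 8. In GE of high P4 cows 2, 4 and 9 it was at 1712, 2866 and 3716 TPM, inside the low P4 range. Neither transcript passed the test of P4 in GE. The log2 change was 0.88 (standard error 1.03) for ENSBTAT00000028684.5 and 0.56 (standard error 1.11) for ENSBTAT00000008743.4, with adjusted p of 0.87 and 0.946 from edgeR.

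Most members rose and fell together from one gland sample to the next. Each member's values over the 10 GE samples, as log2(TPM + 1) less the member's mean, were compared with the median profile of all other members. A correlation of at least 0.8 was met by 63 members, called the common profile here, and missed by 44. As descriptions over 10 samples that share their depth and dissection, the median pairwise correlation was 0.854 within the 63 and 0.601 over all 107, and the first 2 components held 42.5% and 26.8% of the variance of the members. Since the profile was built from these values, no test was made. The 63 had a median level of 31.2 TPM, a highest level of 147 TPM and a median length of 1336 bases. For the 44 others these were 30.7 TPM, 4680 TPM and 1353 bases.

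High and low P4 cows were interleaved along the common profile. Its median level was highest in GE of low P4 cow 12, at 168% of the low P4 GE mean, followed by high P4 cow 2 at 154% and low P4 cows 11 and 3 at 150% and 133%. It stood at 108% in cow 10, 93.2% in high P4 cow 9, 65.9% in high P4 cow 4, 54.2% in cow 8, 51.2% in cow 6 and 24.0% in cow 13. Within the high P4 samples, 61 of the 63 members were highest in cow 2, 2 in cow 9 and 0 in cow 4. Of the 44 others, 21 were highest in cow 2, 12 in cow 4 and 11 in cow 9. The common profile was defined on these same samples. The shared order of the 63, and its contrast with the others, thus follows from that choice and is a description.

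The level of the transcripts of both epithelia moved with the common profile in some of these samples and not in others. It was low in cow 13, at 34.1%, where the common profile was lowest. In cows 8 and 4, however, it stood at 102% and 108% with the common profile at 54.2% and 65.9%, and in cow 11 it was at 68.7% with the common profile at 150%. GE of cow 6, with the common profile at 51.2%, was the sample in which LE-restricted transcripts reached 9.92%. The part of sample makeup in the spread of the common profile was not tested.

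**Figure D3:**
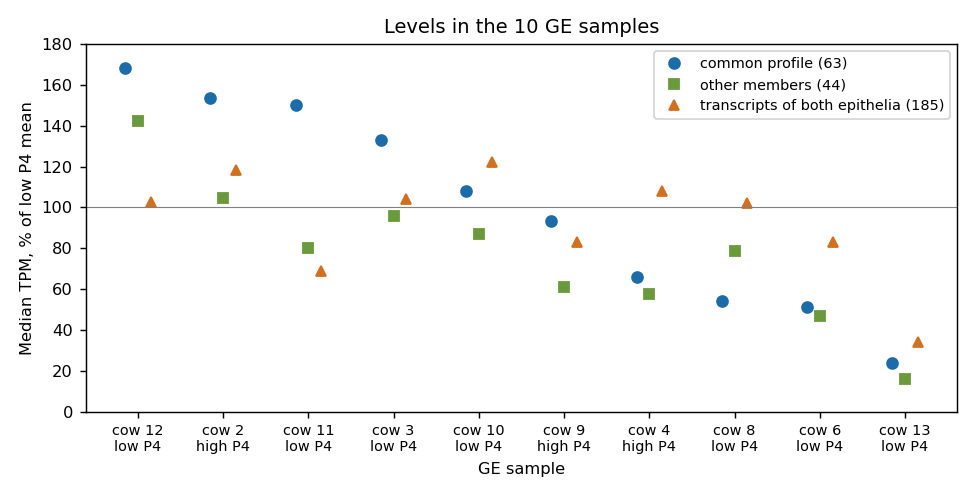
Median level in each of the 10 GE samples, ordered by the common profile, of the 63 members with the common profile (circles), the 44 other members (squares) and the 185 transcripts of both epithelia (triangles), as a percentage of the low P4 mean, in GE for members and over GE and LE for triangles. The circles fall from 168% in cow 12 to 24.0% in cow 13, with high and low P4 cows interleaved.

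Members carried by a single cow lay outside the common profile, as the correlation that defines it removes them. In 7 members, all among the 44 others, a single low P4 cow gave over 50% of the summed low P4 GE level. Of the 107 members, 89 reached at least 1 TPM in each of the 10 GE samples. That held for 59 of the 63 with the common profile and for 30 of the 44 others. The coefficient of variation over low P4 GE had a median of 60.1% in the first group and 91.6% in the second.

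The high P4 samples had no part in choosing the members and offer a test, in other cows, of whether GE lay above ST. LE, the next highest cell type for most members, gave a single high P4 library, so restriction against LE was not tested. In these 7 samples, fitted alone, 57 of 107 members were higher in GE than in ST and 0 were lower. This was 53.3% of the members, against 5.45% of the 27199 transcripts tested that were higher in GE (edgeR's quasi-likelihood test, at most 0.05 after Benjamini-Hochberg adjustment). The log2 difference had a median of 4.57 over all 107 members and of 0.00 over all transcripts. It ran from 2.67 to 7.43 among the 57, with adjusted p of 0.011 to 0.0496. The 50 members that did not pass had a median log2 difference of 4.56, 48 of them with a higher mean in GE, and 42 of the 50 had an unadjusted p under 0.05.

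With only 3 cows on each side, the count moved with each cow. It fell to 1 when cow 2 was left out, to 20 for cow 5 and to 0 for cow 9, and rose to 69 for cow 4. Calls over all transcripts fell in each of these fits. Those higher in GE numbered 1482 of 27199 with all cows and 61 of 27113 without cow 2. There were 425 of 27091 without cow 5, 125 of 26822 without cow 9 and 695 of 26995 without cow 4. Of the high P4 cows, 2 gave both cell types, and with the cow as a block in limma voom 89 members passed, against 12.5% of all transcripts higher in GE. DESeq2 called 93, against 11.9%. Both fits thus also called more of all transcripts than edgeR. None of these fits called a member lower in GE.

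Without a model, all 3 high P4 GE samples lay above all 3 high P4 ST samples in TPM for 101 of 107 members, against 20.4% of 27480 transcripts. In cow 9, the one high P4 cow with all cell types, GE was highest for 103 members. There it was at least 10 times both LE and ST for 89 members, against 4.25% of transcripts, and at least 10 times ST for 100 members, against 10.9%. In cow 4, GE lay above ST for 105 members but reached 10 times ST for only 28, against 7.1% of transcripts. The ST sample of this cow was the one that held the transcripts of both epithelia at 21.2%. Averaged over the high P4 cows, 93 members reached 10 TPM in GE and 97 were at least 10 times higher in GE than in ST. For the counts of 103, 105, 93 and 97 members, the share over all transcripts was not computed.

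**Figure D4:**
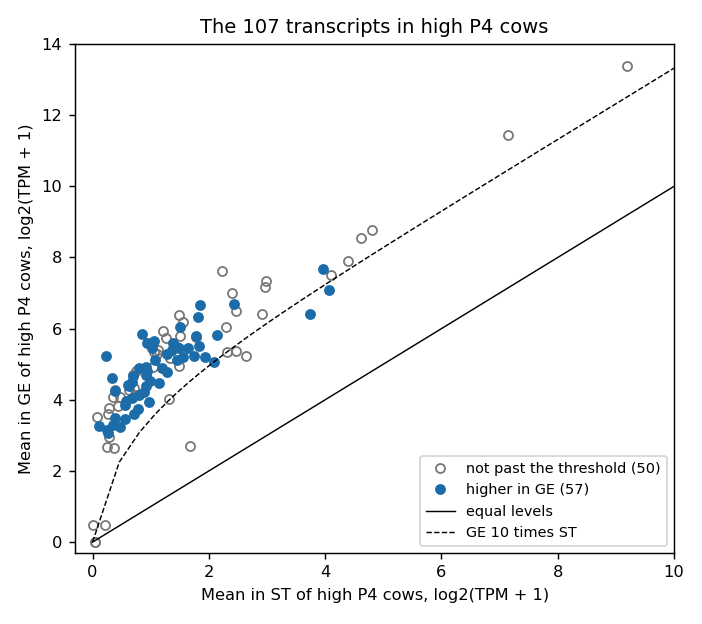
Mean level of the 107 members in ST (horizontal) and in GE (vertical) of the 3 high P4 samples of each, as log2(TPM + 1). Filled circles mark the 57 members higher in GE by edgeR, open circles the 50 that did not pass, the solid line equal levels and the dashed line GE at 10 times ST. Nearly all members lie far above the line of equal levels, whether or not they passed.

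The effect of P4 within the glands was tested between 3 high and 7 low P4 cows in a fit of all 29 samples. The low P4 samples also chose the members for a high level, and the choice thus favours a fall with high P4. With edgeR 0 members passed in either direction, as was so for all transcripts (0%). The median log2 change was -0.18 over the members and -0.09 over all transcripts, with 31 members higher and 76 lower by point estimate. At an unadjusted p under 0.05 there were 5 members (4.67%), 2 higher and 3 lower, against 9.31% of all transcripts. DESeq2 called 3 members, all lower (2.8%), against 1.74% of all transcripts that it called lower. In limma voom, blocking on the cow, 1 member passed, higher (0.935%), against 0.255% of all transcripts. With 1 cow left out, the median log2 change ran from -0.54 without cow 2 (17 members higher and 90 lower) to 0.05 without cow 4 (62 higher and 45 lower), and 0 members passed in any of these fits. It was also above 0, at 0.02, without cow 12.

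The 3 high P4 samples lay above all 7 low P4 samples for 4 members (3.74%), against 4.01% of all transcripts, and below them for 1 member (0.935%), against 0.771%. Both shares lay near the background.

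ENSBTAT00000048571.4 had the smallest unadjusted p of a rise in GE. It was at 146 TPM in cow 2, 710 TPM in cow 4 and 449 TPM in cow 9. In the low P4 cows it ranged from 0.16 TPM in cow 13 through a median of 11.9 TPM to 62.6 TPM in cow 8. The groups did not overlap. The log2 change was 4.14 (standard error 1.18, adjusted p = 0.267 from edgeR), which did not pass. This transcript was the 1 member that passed in limma voom when blocked on the cow.

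ENSBTAT00000022589.6 was next, at 187, 156 and 87.3 TPM in GE of cows 2, 4 and 9 and at 5.37 to 71.3 TPM, with a median of 30.0 TPM, in the low P4 cows. Here, too, no values overlapped. Its log2 change was 1.88 (standard error 0.78, adjusted p = 0.471 from edgeR).

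The smallest unadjusted p of a fall belonged to members found in a few low P4 cows only. ENSBTAT00000038328.5 was at 71.5 TPM in cow 3 and 45.3 TPM in cow 11, at 2.61 TPM in cow 6 and 1.32 TPM in cow 13, and at 0.0176 to 0.0414 TPM in the other low P4 cows. The high P4 cows held 1 count in all, in cow 9 at 0.0114 TPM. ENSBTAT00000009606.6 was at 118 TPM in cow 3, 29.8 TPM in cow 11, 11.6 TPM in cow 8 and 0.554 TPM in cow 12, and at 0 in the other 3 low P4 cows. It was at 0 in all 3 high P4 GE samples. Against a floor of 3 counts over these 3 libraries, the low P4 mean was at least 844-fold higher, and at least 299-fold higher without cow 3, which alone gave 73.7% of the low P4 sum. The adjusted p from edgeR was 0.238 for the first and 0.323 for the second. In both, low P4 cows without the transcript resembled the high P4 cows.

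**Figure D5:**
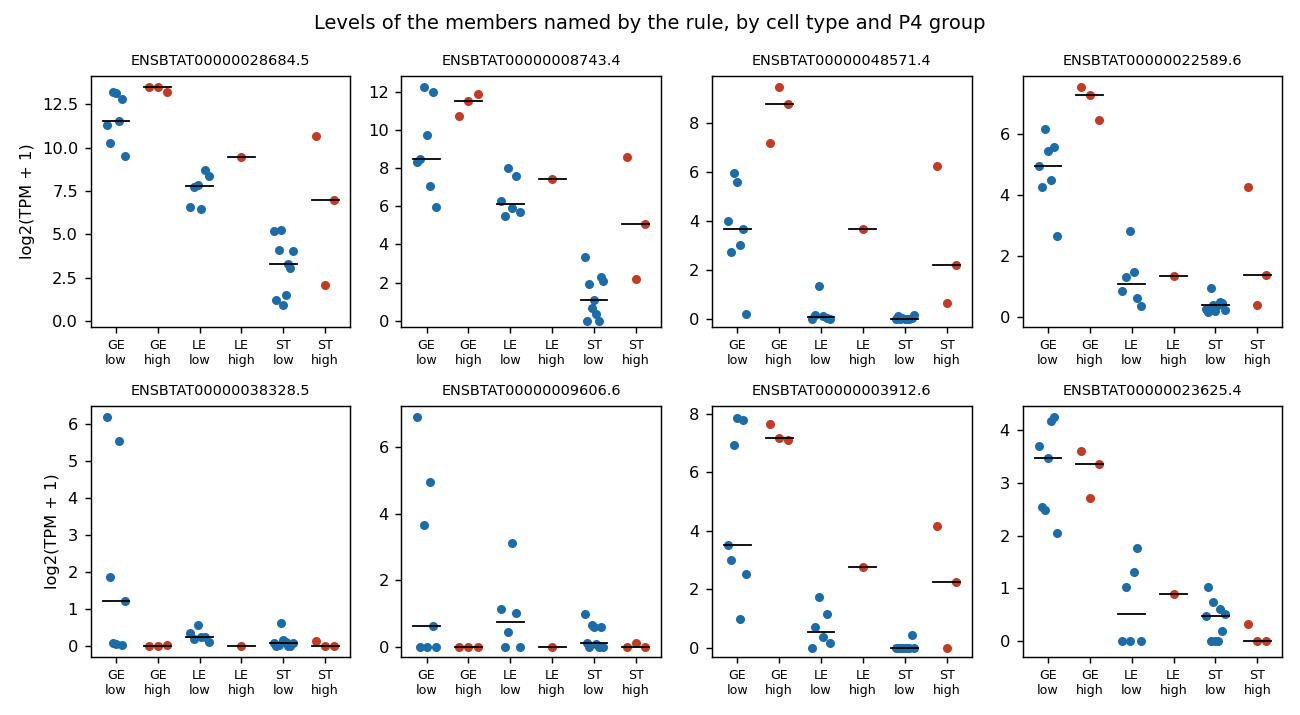
Levels, as log2(TPM + 1), of the 8 members named by the fixed rule, in low P4 (blue) and high P4 (red) samples of each cell type. Each point is a sample and each bar the median of its group. Of the red points for ST, 1 lies well above the others in the first 4 panels and is the sample of cow 4.

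In ST the members were favoured to rise, since the low P4 ST samples chose them for a low level. With high P4, 8 of 107 members rose (7.48%) and 0 fell, against 0.171% of all transcripts that rose (edgeR, 3 against 9 cows). The median log2 change was 1.38 over the members and -0.04 over all transcripts, with 90 members higher and 17 lower by point estimate. At an unadjusted p under 0.05 there were 39 members (36.4%), all higher, against 10.8% of all transcripts in either direction.

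The rise rested on cow 4. Without it, 0 members passed and the median log2 change was -0.32, with 48 members higher and 59 lower. Of all 27480 transcripts, 6 rose in that fit, against 47 with all cows. The sample of cow 4 was also the ST sample richest in the transcripts of both epithelia. The part of epithelial RNA in the rise was not tested. The count was 1 without cow 11, 2 without cow 12 and 5 without cow 10. Of all 27480 transcripts, 16, 20 and 41 rose in these fits. The count was also 1 when ST samples were fitted alone, against 3 of 27291 transcripts that rose. It was 0 with the cow as a block in limma voom, against 81 of 27480. DESeq2 called 11 members, all higher and with the 8 among them, against 160 of 27480 transcripts. Only 3 members (2.8%) had all 3 high P4 ST samples above all 9 low P4 samples, against 3.45% of all transcripts.

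Of the 8 members that rose, 7 lay outside the common profile, against 44 of all 107 members. GE of cow 4 was among the samples that defined the profile, so the 2 choices are not independent. Relative to the low P4 GE mean, the median level of the 8 in ST reached 23.5% in cow 4, against 0.462% in cow 5 and 3.15% in cow 9. In low P4 ST the 8 stayed at or below 2.8%. Without cow 4 their median log2 change was 2.19, against 5.24 with it, 7 of the 8 were still higher by point estimate, and the lowest adjusted p was 0.237 (edgeR). The low P4 GE mean comes from other cows. In GE of cow 4 itself all of the 8 but ENSBTAT00000055819.3 stood above it, such as ENSBTAT00000028684.5 at 11557 against 4680 TPM. Relative to GE of the same cow, the median member of the whole set stood at 13.2% in ST of cow 4 and 1.48% in ST of cow 9.

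The largest rise in ST was again that of ENSBTAT00000048571.4, with a log2 change of 9.01 ± 1.35 (standard error) and an adjusted p of 0.0028 by edgeR. In ST it was at 76.7 TPM in cow 4, 0.594 TPM in cow 5 and 3.61 TPM in cow 9, and at 0 to 0.128 TPM in the 9 low P4 cows. In cow 4 this was above its level in any low P4 GE sample, but far below its level in GE of the same cow. ENSBTAT00000003912.6 followed with a log2 change of 6.60 ± 1.39 (standard error) and an adjusted p of 0.0411 by edgeR. This transcript was at 16.9, 0 and 3.74 TPM in ST of cows 4, 5 and 9, and above 0 in a single low P4 ST sample, at 0.359 TPM in cow 12. In GE it was at 199, 143 and 138 TPM in high P4 cows 2, 4 and 9, and at 0.99 to 233 TPM in low P4 cows. Neither rise passed without cow 4, when the log2 change of ENSBTAT00000048571.4 was 5.49 (adjusted p = 0.237 from edgeR) and that of ENSBTAT00000003912.6 was 4.69 (adjusted p = 0.785 from edgeR). The transcripts ENSBTAT00000028684.5 and ENSBTAT00000008743.4 were also among the 8, with log2 changes of 5.13 and 5.60.

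No member that was lower in high P4 ST passed. The smallest unadjusted p was 0.155 (edgeR), for ENSBTAT00000023625.4, a member with the common profile. It was at 0.251 TPM in cow 4 and at 0 in cows 5 and 9, and at 0 to 1.03 TPM in low P4 ST, so the groups overlapped. In GE it stood at 5.56 to 11.2 TPM in high P4 and 3.15 to 18.0 TPM in low P4 cows. The next was ENSBTAT00000009606.6, at 0 to 0.0896 TPM in high P4 ST and 0 to 0.962 TPM in low P4 ST.

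Whether P4 acted differently on the members in GE and in ST was tested with the cow as a block. Among the high P4 cows, only cows 4 and 9 gave both cell types, so only they inform this difference. With either left out, it rests on the other alone. With edgeR 0 members passed, as was so for all transcripts (0%). At an unadjusted p under 0.05 there were 34 members (31.8%), all with a lower P4 effect in GE, against 3.21% of all transcripts in either direction. The choice of members on low P4 samples favours this direction in both cell types. DESeq2 called 2 members (1.87%), both in this direction, against 0.186% of all transcripts. The median log2 difference between the effects was -2.99 with all cows. It was -1.08 without cow 4 and -4.47 without cow 9. Without the block it was -1.87. In that fit 21 members (19.6%) had an unadjusted p under 0.05 by edgeR, against 1106 of 27480 transcripts in either direction.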

How the data were processed

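Full-length cDNA of laser-captured LE, GE and ST was amplified and sequenced by the authors, who quantified the reads with Salmon 1.1.0 on Ensembl bovine transcripts (ARS-UCD1.2). Per the file headers each sample holds an estimated count per transcript, without normalization, and the TPM that Salmon computed from these counts and effective lengths; the authors deposited both. Amplified reads without molecular identifiers are not independent molecules. Of the values above 0, 74.2% were not whole.

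TPM served for the rule and for levels. Estimated counts were rounded for the tests. Transcripts with at least 10 counts in at least 3 samples were kept, 27480 with all 107 members, and normalized by TMM. Tests were edgeR 4.0.16 quasi-likelihood tests in R 4.3.3 per transcript, with Benjamini-Hochberg adjustment over all transcripts tested. GE and ST were compared in the 7 high P4 samples alone, P4 effects in a fit of 6 group means, and the difference between P4 effects with the cow as a block. Scripts were tested on simulated data. Samples of the same cow came from the same animal. Over 21 such pairs, deviations from the group mean had a median correlation of 0.202 (lowest 0.0638), against -0.009 between cows, so p-values of the fits without a block take related samples as independent.

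Members and lists were chosen with earlier results of these data known. Members named by identifier were the 2 of highest level and, in each P4 comparison, 2 rises and 2 falls, the largest among those past the threshold or, where none passed, those of smallest unadjusted p. Marker lists set for named genes were not used, since no symbols are paired with the transcripts. No sequences are shown. Alternatives were DESeq2 1.42.0, RLE size factors, no count filter, effective length offsets, voom of limma 3.58.1 blocked on the cow, a cell type fitted alone, all 29 samples, the title letter as a covariate, no block, leaving out each cow, and other limits of the rule. Tables used Python 3.11.15 with pandas 2.3.3 and numpy 2.4.6, and figures matplotlib 3.10.9.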

Additional observations from a re-analysis of the deposited data

Results flagged for a closer look

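Single samples far from the rest of their group, by the gap to the nearest value over the range of the group, occurred in 8 of 30 groups looked at. That rate is not set against the 1 in 20 that chance gives for symmetric values, since TPM values are skewed and some members were named for values in single cows. The groups covered the members' sum, their median and the named members in low P4 samples. All 8 were the highest value of a named member. In GE, ENSBTAT00000009606.6 was at 118 TPM in cow 3, with the next cow at 29.8 TPM. In LE, the same transcript was at 7.59 TPM in cow 11, with 1.18 TPM next. ENSBTAT00000048571.4 was at 1.58 TPM in LE of cow 10, with 0.119 TPM next, and ENSBTAT00000022589.6 was at 6.12 TPM in the same sample, with 1.81 TPM next. In ST, ENSBTAT00000008743.4 was at 9.13 TPM in cow 1 (3.92 TPM next), ENSBTAT00000022589.6 at 0.941 TPM in cow 6 (0.414 TPM next), ENSBTAT00000038328.5 at 0.535 TPM in cow 7 (0.106 TPM next) and ENSBTAT00000003912.6 at 0.359 TPM in cow 12 (0 in the other 8 cows). The sums and medians of the set held no such sample in any low P4 group.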

How the results depend on the processing

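The number of members was 107, and 189 with a ratio of 5 and 36 with a ratio of 20 in place of 10. It was 110 with medians, 114 with CPM, 148 and 72 with 5 and 20 TPM as the level, and 88 to 123 with 1 low P4 cow left out. CPM is not scaled by length, and 80 of its 114 transcripts were members. Members higher in GE than ST among high P4 cows numbered 57, with DESeq2 93 and with the replicate block in limma voom 89, and 0 to 69 with 1 cow left out (fewest without cow 9, and 1 without cow 2 and 20 without cow 5). In GE the count for P4 was 0, with DESeq2 3 and with the replicate block 1, and 0 with any cow left out. In ST it was 8, with DESeq2 11, when fitted alone 1 and with the replicate block 0. It was 0 to 10 with 1 cow left out (0, 1, 2 and 5 without cows 4, 11, 12 and 10). The difference between P4 effects gave 0 members, with DESeq2 2, and 0 without the block or any cow. The causes were not tested, but fits without a cow or of a cell type alone use fewer samples. Calls over all transcripts also changed between these fits. The other settings, RLE size factors, no count filter, length offsets, all 29 samples and the title letter, kept each count within 1.5 times.

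Without its 5 highest members, the mean sum was 4532 TPM in high P4 GE, 3710 TPM in low P4 GE, 326 TPM in high P4 LE, 208 TPM in low P4 LE, 233 TPM in high P4 ST and 54.3 TPM in low P4 ST. With 1 cow left out it was 18351 to 19332 TPM in high P4 GE, 9196 to 12120 TPM in low P4 GE, 470 to 631 TPM in low P4 LE, 72.8 to 86.5 TPM in low P4 ST, and 179 (without cow 4) to 1459 TPM in high P4 ST. In low P4 ST, 14 to 56 members were at 0 in a sample. The fewest were in cow 7, at one of the lower depths, and the most in cow 11, at the lowest depth. Each P4 comparison within GE or within ST has 3 high P4 cows. The difference between P4 effects rests on fewer, those that gave both cell types. This limits every count of members.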
